A study of Homo sapiens with 4 samples.

Results

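DHRS2 and 8 named relatives of the short-chain dehydrogenase/reductase family were described here in glioblastoma (GBM) cell lines treated with brusatol (Bru). The members were picked by gene name from the deposited expression tables and are DHRS2, DHRS1, DHRS3, DHRS4, DHRS7, DHRS7B, DHRS9, DHRS11 and DHRS13, 9 of the 58735 genes listed. DHRS2 was chosen because it was higher with Bru in both lines, so its own ratios are a description and support nothing. RNA was sequenced from the established human GBM lines U251 and U87, each as Control and after 48 h of Bru, and each of the 4 libraries is the only one of its condition. According to the study's methods, the lines were bought from a cell bank and grown in medium with serum. Bru was given at the IC50, the study's text says, and the labels give no concentration for these libraries. The labels do not say whether the Control cells of these libraries received solvent.

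Short-chain dehydrogenases are enzymes that move hydride between NAD(H) or NADP(H) and carbonyl or hydroxyl groups, and their substrates include retinoids, steroids, sugars and fatty acid derivatives. DHRS2, also called HEP27, was first described in growth-arrested hepatoma cells, and its protein has been reported to bind the ubiquitin ligase MDM2. Bru is a quassinoid that inhibits protein synthesis and lowers short-lived proteins, among them the antioxidant factor NRF2.

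DHRS2 lies at chr14:23630115-23645639 on the forward strand, in the coordinates that the files share with GENCODE 29 (GRCh38). To show what stands before the gene, the 250 bases upstream of its listed RefSeq start (GRCh38.p14, chr14:23629865-23630114) are printed next to those of the first listed start of DHRS3 (chr1:12618211-12618460, reverse strand), the relative with the highest Control level. The capitals mark the letters TATAAA of a TATA box.
DHRS2: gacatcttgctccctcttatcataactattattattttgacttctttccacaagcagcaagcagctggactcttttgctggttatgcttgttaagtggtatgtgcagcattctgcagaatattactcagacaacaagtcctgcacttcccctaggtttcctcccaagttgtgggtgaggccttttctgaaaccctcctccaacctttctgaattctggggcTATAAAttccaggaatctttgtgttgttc
DHRS3: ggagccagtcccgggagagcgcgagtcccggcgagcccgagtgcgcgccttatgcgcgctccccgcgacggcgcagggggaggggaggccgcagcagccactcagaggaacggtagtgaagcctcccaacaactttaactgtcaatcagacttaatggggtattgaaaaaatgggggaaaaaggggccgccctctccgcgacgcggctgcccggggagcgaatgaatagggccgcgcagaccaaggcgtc
The DHRS2 stretch held 0 CpG dinucleotides and 43.2% G or C, and its TATAAA began 29 bases before the start. The DHRS3 stretch held 26 CpG and 65.2% G or C. Listed windows 2 and 3 of DHRS3 held fewer, 10 and 3 CpG, with 58.8% and 54.8% G or C. A stretch without CpG was not particular to DHRS2, as listed windows 1 and 4 of DHRS9 also held 0. Over the 35116 windows of the same length in the table, the median was 11 CpG and 58% G or C. The letters TATAAA, on either strand, were found in 10.7% of all windows. Windows were listed for 8 of the 9 members, with none for DHRS7, and these members had 15 windows in all. TATAAA was in 4 of the 15 windows, 1 of DHRS2 and 3 of DHRS9. The GC box GGGCGG was in 5 of the 15 windows and in 42.6% of all windows, and it was not in the DHRS2 window. The DHRS2 window also lacked CCAAT, found in 32.0% of all windows, and TGACNNNGC, the core of the antioxidant response element, found in 10.9%. All motifs were searched on both strands. A match of letters is a description and says nothing about a factor at this gene. The main coding transcript of DHRS2 in GENCODE 29, DHRS2-201, begins farther downstream, at position 23636335, so the printed window is not the one next to its first base. DHRS3, on the reverse strand, begins at position 12617731 there, so its printed window is not next to its first base either.

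By the deposited gene lengths, DHRS2 RNA was in the lower part of the expressed range in both Control libraries and above its middle with Bru. In U251 its level was 0.227 FPKM in Control (36 reads) and 4.21 FPKM with Bru (589 reads). In U87 it was 0.220 FPKM in Control (30 reads) and 4.69 FPKM with Bru (617 reads). FPKM, as deposited, are fragments scaled to gene length and library size, and the reads were recovered from the FPKM steps. Both Bru libraries stood above both Control libraries, and the 2 lines had like levels in each condition. The ratio of reads per library size was 18.5 in U251, with a 95% exact counting interval from 13.2 to 26.7, and 21.4 in U87, from 14.8 to 31.9. Each line has 1 library per condition, so these and all other intervals here cover counting error only, and no p-value is given within a line. Taken as log2 of FPKM + 0.1, the ratio was 3.72 and 3.91 for U251 and U87. The pseudocount lowers it, since the Control levels are low, and reads alone gave 4.21 and 4.42. The difference between the lines in log2 reads, U87 minus U251, was 0.21 with an interval from -0.56 to 0.97, so counting error alone spans differences in either direction.

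The rank of DHRS2 among all genes with a read moved from percentile 28.9 to 67.7 in U251 and from 27.5 to 70.8 in U87. Among genes with a mean of at least 1 FPKM over the 4 libraries, 12949 genes in all, its log2 ratio on FPKM + 0.1 ranked 13 in U251 and 23 in U87. Among the 10851 protein-coding genes it ranked 1 in U251 and 2 in U87. In both lines together 0.456% of all genes tested had a log2 ratio above 1, and DHRS2 was the only one of the 9 members among them. DHRS2 was chosen on these ratios and passed the minimum of 1 FPKM through its Bru libraries alone, so the ranks are a description.

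The length that the files give DHRS2, 7556 bases, is the sum of the exons of its 10 annotated transcripts, 3 of them with retained introns. DHRS2-201 is 1705 bases long with 9 exons and 280 codons, 4.43 times shorter. If all reads came from that transcript, the levels would be 1.01 and 18.6 FPKM in U251 Control and Bru, and 0.974 and 20.8 FPKM in U87 Control and Bru. The ratios of reads do not depend on this length. The log2 ratios of FPKM with a pseudocount, and the ranks taken from them, do depend on it. So do the minimum level in FPKM, the percentiles and the place of DHRS2 among its relatives. With the lengths of the files, DHRS2 was the 8th highest of 9 members in both Control libraries, the 5th in U251 with Bru and the 3rd in U87 with Bru. With the length of each gene's main transcript, it was the 8th in both Control libraries and the 3rd in both Bru libraries. Its share of all reads on the 9 members was 0.767% and 16.7% in U251 Control and Bru, and 0.681% and 13.8% in U87 Control and Bru. The summed FPKM of the members was 63.0 and 48.3 in U251 Control and Bru, and 72.3 and 69.6 in U87 Control and Bru.

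**Figure D1:**
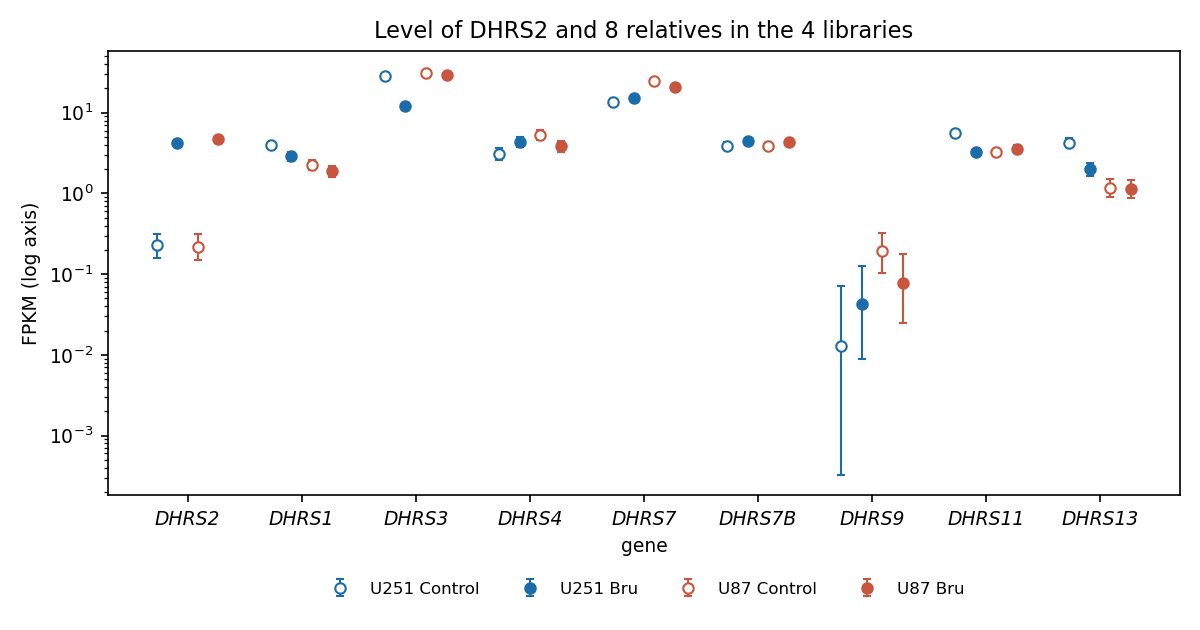
FPKM on a log axis of the 9 members in the 4 libraries, open circles for Control and filled circles for Bru, with bars for the 95% exact Poisson interval of the reads. DHRS2 lies at 0.227 and 0.220 FPKM in the Control libraries and at 4.21 and 4.69 FPKM with Bru, while no relative is higher with Bru by more than 2-fold in either line past the minimum level.

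The 8 relatives did not share this pattern. With the minimum of 1 FPKM, 7 relatives could be read, and DHRS9 stayed under it. In U251, 2 of the 7 relatives were past 2-fold, DHRS3 and DHRS13, both lower with Bru, and 0 were higher. In all genes tested, 8.80% were past 2-fold in U251, 3.36% higher and 5.44% lower. In U87, 0 of the 7 relatives were past 2-fold, where 3.34% of all genes were, 1.92% higher and 1.41% lower. The median log2 ratio of the 7 was -0.45 in U251 and -0.10 in U87, next to -0.03 and -0.04 over all genes tested.

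Counting intervals were narrow for most relatives, and those given beside a log2 ratio are in log2 reads, with no pseudocount. In U251 the interval lay above 0 for 2 of 7 relatives and below 0 for 4, with 30.9% and 35.9% of all genes tested on those sides. In U87 it lay above 0 for 0 and below 0 for 3, with 15.7% and 28.0% of all genes tested. Such shares over all genes show that an interval from counting alone is left by many genes between these libraries.

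The retinoid enzymes come first. DHRS3 reduces all-trans-retinal to retinol and is itself induced by retinoic acid. It lies at chr1:12567910-12617731 (ENSG00000162496) and was the member with the highest level in 3 of the 4 libraries. DHRS3 went from 28.4 to 12.1 FPKM in U251 cells and from 31.4 to 29.3 FPKM in U87 cells, Control before Bru. The library that stood apart was U251 with Bru, below the other 3. In U251 DHRS3 fell by 1.23 on the log2 scale, with an interval from -1.36 to -1.11. In U87 the log2 ratio was -0.10, with an interval from -0.20 to -0.0024. The difference between the lines was 1.13 in log2 reads, from 0.97 to 1.296. DHRS3 shares no 50-base stretch of its transcripts with another gene.

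DHRS4 is a carbonyl and retinal reductase found in peroxisomes. It lies at chr14:23953586-23969279 (ENSG00000157326), in a cluster with the copy DHRS4L2, the pseudogene DHRS4L1 and the antisense gene DHRS4-AS1. DHRS4 went from 3.10 to 4.33 FPKM in U251 cells and from 5.28 to 3.84 FPKM in U87 cells, Control before Bru. It was thus higher with Bru in U251 and lower with Bru in U87, in neither by 2-fold. The log2 ratio was 0.47 in U251, with an interval in log2 reads from 0.16 to 0.80, and -0.45 in U87, from -0.77 to -0.16. The difference, U87 minus U251, was -0.94, from -1.39 to -0.50. Of the 50-base stretches in its transcripts, 48.01% are also found in other genes, 35.4% in DHRS4L2 and 10.9% in DHRS4-AS1, so the split of reads among these genes is uncertain. Summed over DHRS4 and DHRS4L2, the reads were 213 and 275 in U251 Control and Bru, and 280 and 231 in U87 Control and Bru. That sum gave 0.55 in U251, from 0.28 to 0.81, and -0.22 in U87, from -0.48 to 0.03. With DHRS4L1 and DHRS4-AS1 added, it gave 0.34 in U251, from 0.15 to 0.53, and -0.13 in U87, from -0.34 to 0.09. The opposite signs of the lines held in both sums, while in U87 the interval then reached past 0.

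DHRS9 oxidises retinol and 3-alpha-hydroxysteroids. It lies at chr2:169064789-169096167 (ENSG00000073737) and was close to undetected. It had 1 read without and 3 with Bru in U251 cells (0.013 and 0.043 FPKM), and 13 without and 5 with Bru in U87 cells (0.192 and 0.077 FPKM). Both U251 libraries were at or under the floor of 3 reads, so no ratio is given there. In U87 the ratio of reads was 0.399, with an interval from 0.111 to 1.19, so counts this low do not show a difference.

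DHRS7 acts on steroids and retinoids at the endoplasmic reticulum. It lies at chr14:60144120-60169856 (ENSG00000100612) and was the other member with a high level in all libraries. DHRS7 went from 13.5 to 15.2 FPKM in U251 cells and from 24.6 to 20.8 FPKM in U87 cells, Control before Bru. U87 stood above U251 in either condition. The log2 ratio was 0.16 in U251, from 0.03 to 0.30, and -0.24 in U87, from -0.35 to -0.13. The difference between the lines was -0.40, from -0.58 to -0.23. Of its 50-base stretches 24.3% also lie in transcripts of PCNX4 on the opposite strand, which had 1732 to 2472 reads per library, and the sources used here do not say whether strand was used in counting.

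**Figure D2:**
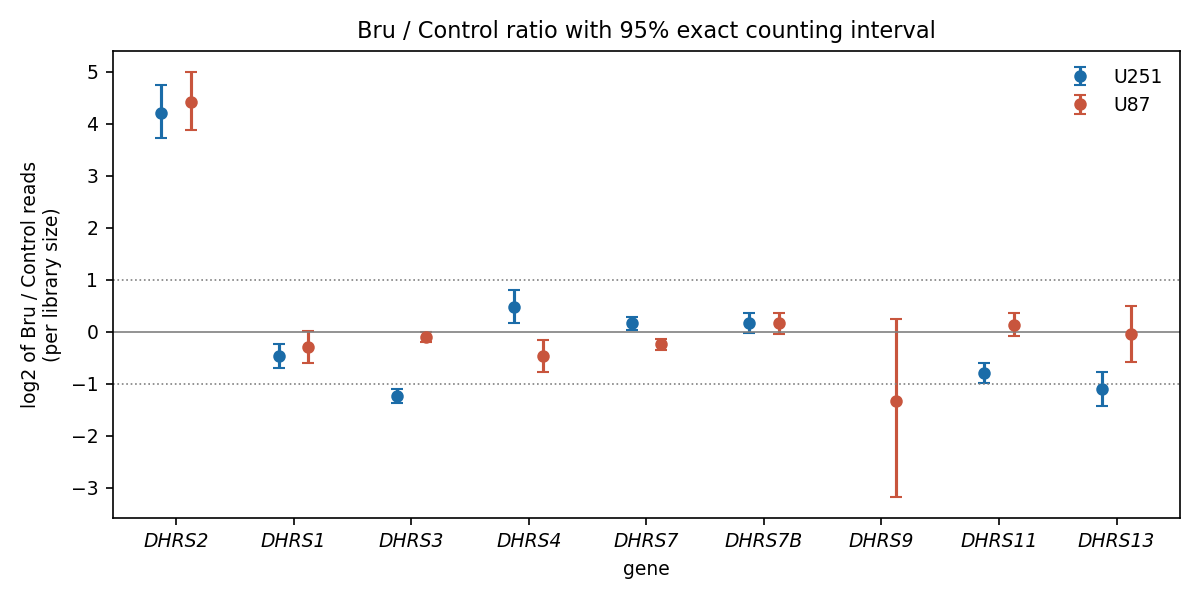
Log2 ratio of Bru to Control in reads per library size for each member in U251 and U87, with bars for the 95% exact counting interval and dotted lines at 2-fold. DHRS2 has a lower limit of 3.72 in U251, and DHRS3 and DHRS13 lie below -1 in U251 and near 0 in U87. DHRS9 is drawn for U87 alone, because its U251 libraries hold 1 and 3 reads.

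The steroid and lipid enzymes follow. DHRS11 is a cytosolic dehydrogenase of 3-beta- and 17-beta-hydroxysteroids and lies at chr17:36591798-36600806 (ENSG00000278535). DHRS11 went from 5.56 to 3.22 FPKM in U251 cells and from 3.22 to 3.54 FPKM in U87 cells, Control before Bru. U251 Control was thus above the other 3 libraries, which were alike. The log2 ratio was -0.77 in U251, with an interval from -0.98 to -0.59, and 0.13 in U87, from -0.09 to 0.36. The difference between the lines was 0.93, from 0.62 to 1.23.

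DHRS7B is a peroxisomal enzyme of ether lipid synthesis and lies at chr17:21123364-21193265 (ENSG00000109016). DHRS7B went from 3.91 to 4.42 FPKM in U251 cells and from 3.87 to 4.34 FPKM in U87 cells, Control before Bru. The log2 ratio was 0.17 in U251, from -0.02 to 0.37, and 0.16 in U87, from -0.04 to 0.37. Its difference between the lines was -0.01, from -0.29 to 0.27. DHRS7B had the most even level of the 8 relatives over the 4 libraries in these values.

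The members with less studied substrates were DHRS1 and DHRS13. DHRS1 lies at chr14:24290598-24299833 (ENSG00000157379), 645 kb beyond DHRS2 on the same chromosome. DHRS1 went from 3.98 to 2.89 FPKM in U251 cells and from 2.28 to 1.87 FPKM in U87 cells, Control before Bru. It was lower with Bru in either line, by less than 2-fold. The log2 ratio was -0.45 in U251, from -0.69 to -0.24, and -0.27 in U87, from -0.59 to 0.02. The difference between the lines was 0.18, from -0.20 to 0.56.

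DHRS13 lies at chr17:28897781-28903071 (ENSG00000167536). DHRS13 went from 4.26 to 1.998 FPKM in U251 cells and from 1.18 to 1.15 FPKM in U87 cells, Control before Bru. Behind these levels were 263 and 109 reads in U251, and 63 and 59 reads in U87. U251 Control was the highest, and the U87 libraries were the lowest and alike. In U251 DHRS13 fell by 1.06 on the log2 scale, with an interval in log2 reads from -1.43 to -0.76. The call is close to the limit of 2-fold and was lost with 2 of 4 other scalings, to the 75th percentile and without mitochondrially encoded genes. In U87 the log2 ratio was -0.04, from -0.58 to 0.50, and its sign was kept in 3 of 6 other scalings and pseudocounts. The difference between the lines was 1.05, from 0.41 to 1.69. An antisense gene over it, AC024267.6, had at most 1 read in any library. Of the 50-base stretches of DHRS13, 37.7% also lie in transcripts of AC024267.6. Whether strand was used in counting is not given, so that low count does not settle how reads in the overlap were assigned.

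Across the 7 relatives past the minimum, the interval of the difference between the lines left out 0 for 5 of 7, DHRS3, DHRS4, DHRS7, DHRS11 and DHRS13. Over all genes tested it left out 0 for 49.8%, so a difference beyond counting error was common between these libraries. DHRS2, DHRS1 and DHRS7B had an interval that held 0. With the lines taken as a pair of blocks, a limma fit over the 4 libraries asked for a Bru effect shared by both lines. It called 0 of the 7 relatives at an adjusted p under 0.05, and 0% of all genes tested. At an unadjusted p under 0.05 it held 1 relative, DHRS3, and 14.2% of all genes. For DHRS3 the shared log2 change was -0.66 with a standard error of 0.27, an adjusted p of 0.342 and a lower level with Bru in both lines. This fit has 1 residual degree of freedom, so a call of 0 does not show that the relatives did not change. DHRS2 was among the genes fitted and was not called at that adjusted threshold either. It was chosen on this contrast, so the fit is no test of it. In Control the levels of several relatives already stood apart between the lines. DHRS13 was lower in U87 than in U251 by 1.76 on the log2 scale of FPKM + 0.1, DHRS1 by 0.78 and DHRS11 by 0.77, while DHRS7 was higher by 0.85 and DHRS4 by 0.75. DHRS2 and DHRS7B differed by -0.03 and -0.01 in Control.

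The wider family showed no gene that moved like DHRS2. A list of 62 other short-chain dehydrogenase genes, which includes the antisense gene DHRS4-AS1 and the pseudogene DHRS4L1, had 41 genes past the minimum level. In both lines 0 of these 41 were past 2-fold, where all genes tested gave 8.80% in U251 and 3.34% in U87. Some of the 41 passed the minimum through 1 line. BDH1 had 5 and 4 reads in U87 Control and Bru, and NMRAL1 had 10 and 14 in U251 Control and Bru. The pseudocount draws such ratios toward 0, so these genes cannot be called unchanged there. The 41 had a median of -0.14 for U251 and -0.16 for U87, next to -0.03 and -0.04 over all genes tested. In U251 the values ran from -0.91 for BDH1, a mitochondrial enzyme of ketone body metabolism, to 0.65 for DHRS4L2. In U87 they ran from -0.61 for GMDS, an enzyme of GDP-fucose synthesis, to 0.39 for DHRS4L2. The highest value of the list was thus the neighbour and copy of DHRS4 in both lines, at 1.19 and 1.93 FPKM in U251 and 1.32 and 1.76 FPKM in U87, Control before Bru. Above 0 were 17 of 41 in U251 and 8 of 41 in U87, next to 6110 and 5474 of the 12949 genes tested. Among all 69 protein-coding family genes, members included, DHRS2 was ranked by FPKM with the lengths of the files. It was the 51st highest in U251 Control and the 27th with Bru, and in U87 the 52nd in Control and the 28th with Bru. Main-transcript lengths were not applied to this ranking, which depends on length.

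**Figure D3:**
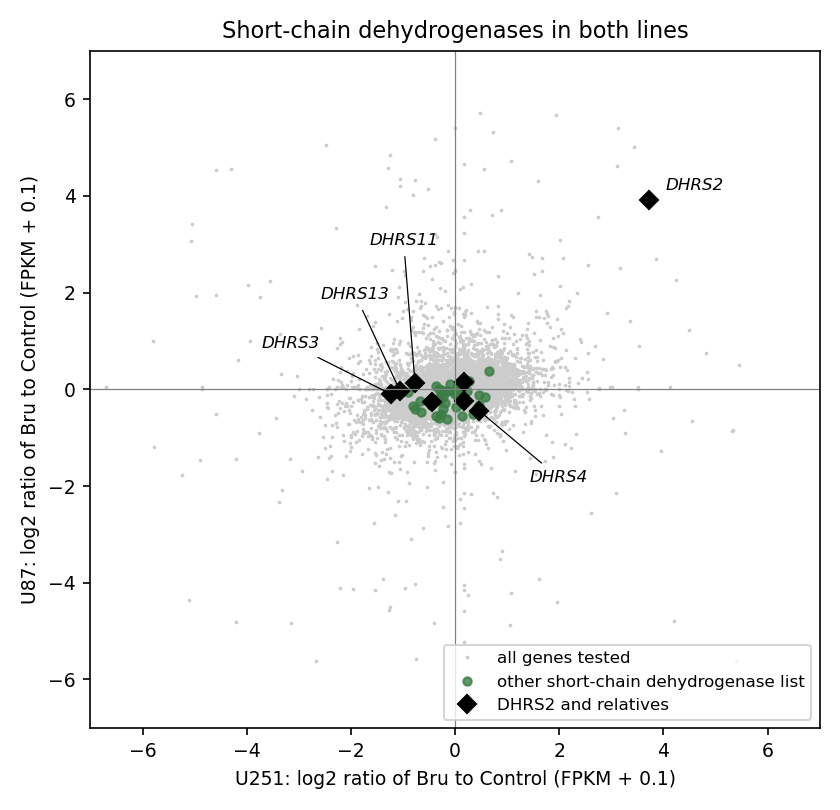
Log2 of Bru over Control, from FPKM + 0.1, in U251 (horizontal) and U87 (vertical) for the 12949 genes tested (grey), the 41 other family genes past the minimum (green) and the members past it (black). DHRS2 stands at 3.72 and 3.91, and the green points run from -0.91 to 0.65 along the U251 axis and from -0.61 to 0.39 along the U87 axis.

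Because DHRS3, DHRS4 and DHRS9 act on retinoids, the genes of retinoic acid synthesis, binding, response and breakdown were listed too. Of 27 such genes, 13 passed the minimum level, and 0 were past 2-fold in either line. The minimum is a mean over the 4 libraries, so a gene can pass it through 1 line. FABP5 had 0 reads in both U251 libraries, so its ratio of 0 there could not pass 2-fold. STRA6 rested on 30 and 20 reads in U87 Control and Bru. With 8.80% of all genes tested past 2-fold in U251 and 3.34% in U87, a count of 0 in 13 is near the background. The median of the 13 lay at -0.28 for U251 and -0.21 for U87, next to -0.03 and -0.04 over all genes tested. In U251 the lowest was CYP26B1, which breaks down retinoic acid, at -0.73 (1.92 FPKM in Control and 1.12 with Bru). The highest in both lines was the receptor RARA, at 0.76 in U251 and 0.29 in U87. The lowest in U87 was CRABP2, which carries retinoic acid to the nucleus, at -0.52.

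A list of 8 genes of growth arrest, its control and the NRF2 pathway was read next to DHRS2. H1F0, the linker histone of resting cells, went from 53.4 to 116 FPKM in U251 and from 4.65 to 7.65 FPKM in U87. Its log2 ratio was 1.12 in U251, past 2-fold, and 0.71 in U87. CDKN1A, an inhibitor of cyclin-dependent kinases, went from 35.6 to 12.7 FPKM in U251 and from 83.7 to 132 FPKM in U87. In U251 it fell by 1.48 on the log2 scale, and the U87 ratio was 0.66. MDM2 had a ratio of -0.42 in U251 and 0.69 in U87, below 2-fold in both. CDKN1A and MDM2 thus had opposite signs in the lines, with a difference of 2.14 (from 2.01 to 2.28) and 1.13 (from 0.99 to 1.27) in log2 reads, while DHRS2 had 0.21 (from -0.56 to 0.97). MDM4, a relative of MDM2, was at 0.11 in U251 and -0.01 in U87. NFE2L2, which encodes NRF2, was at 0.09 and -0.23, and its inhibitor KEAP1 at 0.37 and 0.13. MYB, a transcription factor, stayed under the minimum level with 54 and 39 reads in U251 and 19 and 10 reads in U87. Of the 8 genes, 7 passed the minimum level, 2 were past 2-fold in U251 and 0 in U87, next to 8.80% and 3.34% of all genes tested.

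No other gene tested near DHRS2 on chromosome 14 had a ratio as high. Within 1 Mb of it, 128 genes were listed and 43 passed the minimum level, DHRS4 and DHRS1 among them. In U251, 2 of the 43 were past 2-fold, both lower with Bru, and in U87 0 were, where 8.80% and 3.34% of all genes tested were past it. The genes that fell in U251 were MMP14, a membrane-bound metalloproteinase, at -1.48, and CDH24, a cadherin, at -1.03. The 43 had a median of 0.02 for U251 and -0.06 for U87, next to -0.03 and -0.04 over all genes tested. The nearest gene before DHRS2 past the minimum was AP1G2, 62.0 kb away, with a ratio of -0.07 in U251 and 0.76 in U87, where it rested on 0.249 and 0.491 FPKM. Next came THTPA at 69.8 kb, with -0.43 and -0.21, and NGDN at 120 kb, with 0.76 and 0.16. On the other side the nearest were DHRS4-AS1 at 293 kb, with 0.06 and 0.10, DHRS4 at 308 kb and DHRS4L2 at 324 kb. The highest ratio in the window was 0.95 for AJUBA in U251 and 0.76 for AP1G2 in U87.

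**Figure D4:**
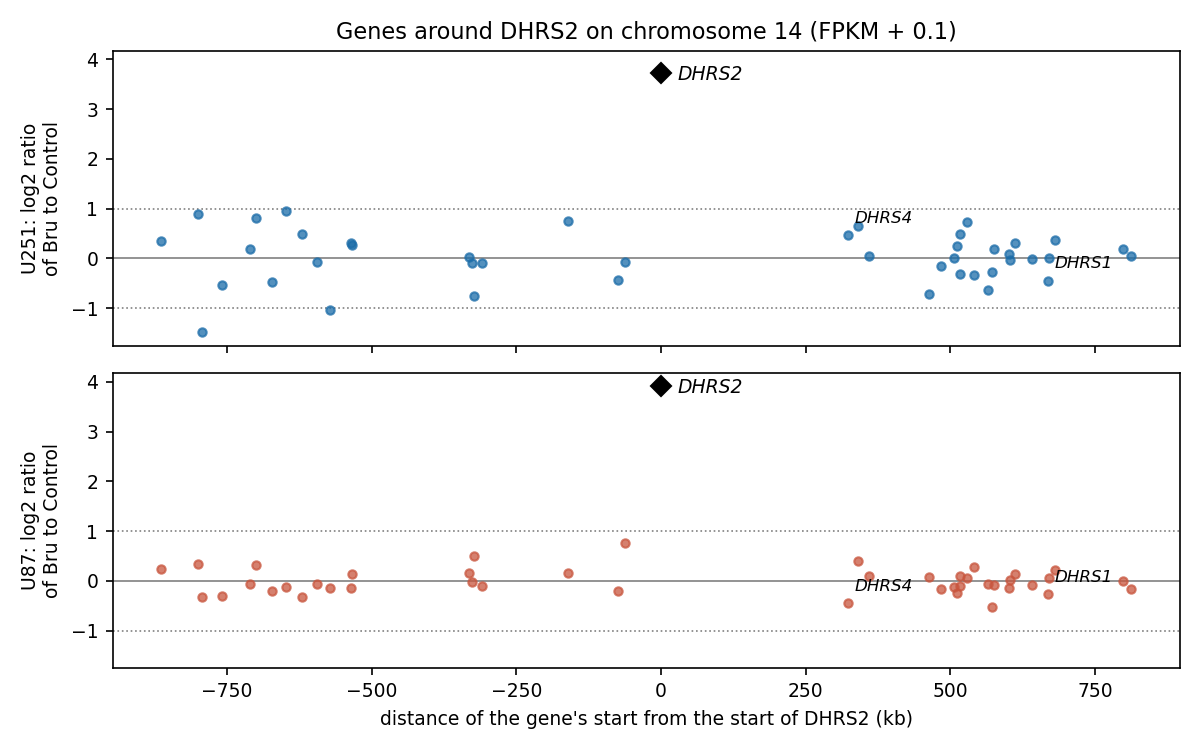
Log2 of Bru over Control, from FPKM + 0.1, for the 43 genes past the minimum level within 1 Mb of DHRS2, against the distance of each gene's start from the start of DHRS2 in kb, U251 above and U87 below. DHRS2 (black) stands at 3.72 and 3.91, and the other genes stay at or below 0.95 in U251 and 0.76 in U87.

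The protein-coding genes whose pattern over the 4 libraries was nearest to that of DHRS2 were HMOX1, HIST1H2AG, BIRC3, IL32 and HIST1H4H. Likeness was the Euclidean distance between log2(FPKM + 0.1) values centred on each gene's mean, and it was 2.23, 2.26, 2.29, 2.39 and 2.49 for these genes in turn. HMOX1, which encodes the haem-degrading enzyme heme oxygenase 1, went from 13.96 to 163 FPKM in U251 and from 57.4 to 106 FPKM in U87. Its log2 ratio of 3.54 in U251 was like that of DHRS2, while in U87 it was 0.89. The histone gene HIST1H2AG had 1.61 and 1.504, and the histone gene HIST1H4H, with 3 reads in U251 Control, had 2.55 and 2.57. BIRC3, an inhibitor of apoptosis, had 2.41 and 0.99, and IL32, a cytokine, had 3.35 and 1.40. None of the 5 matched DHRS2 in both lines. By the smaller of the values in the 2 lines, the ratio of DHRS2 was the largest of the 10851 protein-coding genes tested. DHRS2 was chosen on these ratios and passed the minimum level through its Bru libraries alone, so this rank is a description.

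The labels were checked against marker genes. VIM (606 to 701 FPKM), CD44 (94.5 to 125 FPKM) and EGFR (12.3 to 15.7 FPKM) were present in all 4 libraries. NES, a filament of neural progenitors, went from 125 to 50.6 FPKM in U251 and from 1.46 to 0.569 FPKM in U87, lower with Bru past 2-fold in both lines and low in U87. Its part in the values of the members was not tested. SOX2 was at 129 and 91.2 FPKM in U251 Control and Bru and was nearly absent from U87, with 0 and 2 reads. GFAP was at 2.42 and 1.08 FPKM in U251 Control and Bru and at 0.215 and 0.147 FPKM in U87. Of 10 markers of blood, endothelial, epithelial and liver cells, CD3E had no read in any library, and the highest value was 0.499 FPKM, for PECAM1 in U87 Control. In cultures, fewer cells with a transcript and less of it per cell cannot be told apart. The share of reads on mitochondrially encoded genes was 2.43% to 4.06%.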

How the data were processed

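RNA of U251 and U87 cells was sequenced as paired-end reads from NEB Next Ultra libraries, 1 library per condition. The authors deposited FPKM per gene with the gene lengths used. The submitters' notes name HISAT2 2.0.5, featureCounts 1.5.0-p3, StringTie 1.3.3b and DESeq2 1.16.1. They also name the build hg18, yet 58676 of 58676 genes found in GENCODE 29 (GRCh38) had the same start and end there, so positions are given as GRCh38. The use of strand in counting is not given in the sources used here.

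FPKM times length was a whole multiple of 1 step for 100% of values above 0, within 0.01 reads, which gave reads per gene and library sizes of 17406238 to 20974002. The ratios use these sizes, which differ from the summed reads on genes. In U251 the sums were 21453561 in Control and 17847910 with Bru, against sizes of 20974002 and 18533374. In U87 they were 18260975 and 17083896, against 18070193 and 17406238. The floor of 3 reads for 1 kb is 0.143 to 0.172 FPKM. Log2 ratios of Bru to Control used FPKM + 0.1 and genes with a mean of at least 1 FPKM over the 4 libraries. An absolute log2 ratio above 1 was called. Ratio intervals are 95% exact Clopper-Pearson intervals, and differences between lines have exact conditional intervals, both on reads, in Python 3.11.15 with SciPy 1.17.1. A Bru effect shared by both lines was fitted with limma 3.58.1 (R 4.3.3, trend, Benjamini-Hochberg adjustment) on log2(FPKM + 0.1) with the line as a block, an alternative chosen after seeing the data. The code was tested on simulated data. Shared stretches are 50-base stretches in GENCODE 29 transcripts.

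The members and gene lists were chosen with earlier results of these data known. Named genes are the 9 members, the 3 nearest expressed genes on each side of DHRS2, the companion genes, genes of the other lists past 2-fold, and the 5 protein-coding genes nearest in pattern. The ends of each list's range, the 2 neighbours that fell, PCNX4 and AC024267.6 were named after their values were seen. Part of the genes on these lists are not reported here. Alternatives were other pseudocounts, scalings, minimum levels and calls. Depth limits precision as far as counting goes, and the spread between cultures of 1 line is unknown.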

Additional observations from a re-analysis of the deposited data

Results flagged for a closer look

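For 5 relatives the Bru/Control ratio differed between the lines beyond counting error, as the exact conditional interval of the difference in log2 reads left out 0. This difference, U87 minus U251, was 1.13 for DHRS3, -0.94 for DHRS4, -0.40 for DHRS7, 0.93 for DHRS11 and 1.05 for DHRS13. DHRS3, DHRS11 and DHRS13 were lower with Bru in U251 and near their Control level in U87, while DHRS4 and DHRS7 were higher in U251 and lower in U87. The intervals hold counting error only, and 49.8% of all genes tested had such a difference. With 1 library per condition, the line and the culture cannot be told apart.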

How the results depend on the processing

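Each choice was changed in turn. The DHRS2 log2 ratio with a pseudocount of 1 was 2.08 in U251 and 2.22 in U87, and it kept its sign in 6 of 6 other pseudocounts and scalings, as every other member did in both lines except DHRS13 in U87 (-0.04 to 0.02). The relatives past 2-fold in U251, 2 as reported, were 1 with a pseudocount of 1, with scaling to the 75th percentile, without mitochondrially encoded genes, and with a minimum of 5 FPKM, which left 2 relatives. Without a minimum level, 1 of 62 family genes was past 2-fold in U251, 1 of 27 retinoic acid genes in U87, and 6 of 128 neighbours in each line. The neighbours past 2-fold in U251 were 1 with a pseudocount of 1, and in U87 5 with a minimum of 0.1 FPKM. Over all genes, the 1140 past 2-fold in U251 became 616 with a pseudocount of 1, 4963 without a minimum level, 3727 with a minimum of 0.1 FPKM and 473 with a minimum of 5 FPKM. The 432 in U87 became 190, 4335, 2801 and 83 in the same order, and 222 when the counting interval also had to leave out a ratio of 1. An assumed coefficient of variation of 0.2, chosen after seeing the data, left the relatives' counts at 2 in U251 and 0 in U87. Apart from DHRS13 in U87, none of the other recomputed values changed its direction or, for counts, moved by over 1.5 times. Scalings moved the median of all genes by at most 0.08 on the log2 scale. With the cell line as a replicate block in limma, chosen after seeing the data, 0 of 7 relatives and 0 of 12949 genes passed an adjusted p under 0.05 (1835 genes unadjusted), and without the block also 0 and 0 (83 unadjusted). In simulated data this blocked fit gave more false calls than its threshold allows. The FPKM carry no spread between cultures, which limits all ratios here, and low genes such as DHRS9 and DHRS2 in Control rest on few reads.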
